A study of Mus musculus with 26 samples.

Results

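Slc22a8 and 9 other transporter genes of the barrier between blood and cerebrospinal fluid were followed through the circadian cycle of the mouse choroid plexus. The members were taken by symbol from the 55416 listed genes: the organic ion transporters Slc22a8, Slc22a5, Slc22a17, Slc22a21, Slco1a5 and Slco1c1, and the efflux pumps of the ABC family Abcc1, Abcc4, Abcb1a and Abcg2. All 10 were found, each under a single Ensembl identifier, and all 10 were among the 13697 genes with enough counts for the tests.

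Messenger RNA was measured in choroid plexus of the 4th ventricle from adult male C57Bl6J mice that had either a sham operation (Ctrl, 12 mice) or an electrolytic lesion of the suprachiasmatic nuclei, the seat of the central clock (SCNx, 12 mice). Both groups were first kept under a light-dark cycle and then in constant darkness, in which 1 mouse per group was killed every 4 h from circadian time (CT) 0 to CT44. A library is named by its group and time, as in Ctrl CT16, and the subjective day ran from CT0 to CT12 of each cycle. The last group, KO, held 1 adult male mouse at Zeitgeber time (ZT) 7 and 1 at ZT18 of the genotype FoxJ1-ERT2-Cre+/-; Bmal1fl/fl. These mice had received tamoxifen in their diet, which activates the Cre in cells that express FoxJ1, a gene of cells with motile cilia, so other cells of the tissue keep Bmal1. The KO mice were in a light-dark cycle, their tissue was cut from frozen brains by laser, and their libraries were made from total RNA with another kit. No mice with intact Bmal1 from that colony were analysed here, and genotype, light and library kit cannot be told apart.

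The epithelium of the choroid plexus secretes cerebrospinal fluid and also clears it. Organic anions, drugs and hormones are taken up by carriers of the SLC22 and SLCO families, which exchange or cotransport their substrates. Pumps of the ABCB, ABCC and ABCG families use ATP to push substrates out of the cell, mostly towards the blood in the case of the ABCC pumps. Slc22a8 codes for OAT3, a carrier of organic anions such as penicillins, prostaglandins and steroid conjugates.

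Total estimated counts on genes lay between 38751162 and 47335226 in Ctrl, between 41807000 and 49527614 in SCNx, and were 17425207 at ZT7 and 18059227 at ZT18 in KO. The 10 markers of choroid plexus epithelium summed to 142600 to 166100 CPM (counts scaled to the size of the library) in Ctrl, 106100 to 166600 in SCNx and 81910 to 86390 in KO, and none of them was at 0, so the labelled tissue carried its defining genes. A few libraries stood apart. The 8 hepatocyte markers summed to 1950 CPM in Ctrl CT16, where no other Ctrl library passed 30.7, and to 11220 CPM in SCNx CT0, where no other SCNx library passed 12.0. The 8 markers of neurons and cerebellum reached 316 CPM in Ctrl CT4 (median of Ctrl 15.7) and 306 CPM in SCNx CT32 (median of SCNx 14.8), and the 5 astrocyte markers reached 745 and 733 in the same libraries, against medians of 144 and 141. In KO these lists were at 200.6 and 302 CPM for neurons and 748 and 851 CPM for astrocytes. In tissue of several cell types, fewer cells of a type and less RNA per cell cannot be told apart.

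The sequences that bear on the readout come first. Clock proteins of the BMAL1 and CLOCK type bind the E-box, and the promoters of the members in RefSeq (GRCm38.p6, 250 bases before to 50 after a start site) were searched for its letters CACGTG, which read the same on both strands. A promoter entry existed for 8 of the 10 members, with 12 entries in all, and none was listed for Slc22a21 and Abcc1. The E-box was found in 1 entry of Abcc4 and in the entry of Slco1c1, while 7.15% of all 32851 promoters of that length hold it. They are shown because Abcc4 was rhythmic in Ctrl and Slco1c1 was not; capitals mark the E-box.
Abcc4 promoter, chr14:118706170-118706469, minus strand: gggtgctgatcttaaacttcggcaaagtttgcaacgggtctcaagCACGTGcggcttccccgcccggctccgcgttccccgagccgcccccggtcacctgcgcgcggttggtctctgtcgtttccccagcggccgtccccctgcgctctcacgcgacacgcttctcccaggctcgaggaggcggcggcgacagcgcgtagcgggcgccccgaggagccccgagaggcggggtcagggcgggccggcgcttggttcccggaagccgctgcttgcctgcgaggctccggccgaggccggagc
Slco1c1 promoter, chr6:141524104-141524403, plus strand: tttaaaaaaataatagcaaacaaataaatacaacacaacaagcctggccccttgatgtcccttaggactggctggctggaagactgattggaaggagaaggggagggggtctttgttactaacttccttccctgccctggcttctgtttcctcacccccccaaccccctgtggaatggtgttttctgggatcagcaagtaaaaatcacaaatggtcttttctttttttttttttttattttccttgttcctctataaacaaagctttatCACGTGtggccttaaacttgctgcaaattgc
In Abcc4 the E-box begins at position -205 from the start site, and in Slco1c1 at position 20 within the transcribed part. The D-box letters TTANGTAA (in 2.32% of promoters), the ROR element TAGGTCA (2.61%) and the HNF1 motif (0.399%), searched on both strands, had no match in the 12 entries. A match is a stretch of letters and not a measured binding site.

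Slc22a5 and Slc22a21 lie on chromosome 11 and share long stretches of sequence, which bears on how short reads could be divided between them. Of the windows of 50 bases in the annotated transcripts (GENCODE M21, GRCm38), 27.2% of Slc22a5 and 24.2% of Slc22a21 also occur in another gene, 812 of them in both. The longest common run of their open reading frames is 157 bases, from base 1289 of 1674 in Slc22a5 and base 1298 of 1695 in Slc22a21, and is shown because reads within it cannot be assigned to 1 of the genes from their letters.
Slc22a5 and Slc22a21, shared run: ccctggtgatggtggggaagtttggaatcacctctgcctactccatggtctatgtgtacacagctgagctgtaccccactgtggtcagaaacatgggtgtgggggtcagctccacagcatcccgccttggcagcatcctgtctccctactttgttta
Abcb1a shares 16.98% of its windows, mostly with Abcb1b, and Slco1a5 shares 4.97%, mostly with Slco1a4. The share was 0.52% for Slc22a8 and 0 for the other 5 members. The estimated counts of Slc22a21, which is the weaker of its pair, and of Abcb1a are therefore uncertain.

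Per kilobase of exon, the members spanned a wide range of levels. Slc22a17, a receptor for lipocalin 2 also known as 24p3R, was the highest with 645 ± 40.8 CPM per kb in Ctrl (SD, n = 12 mice), followed by Slco1c1, a carrier of thyroxine and organic anions, with 213 ± 16.6. Abcc4, Slc22a8 and Slc22a5 followed with 21.7 ± 2.46, 21.1 ± 3.18 and 20.7 ± 1.86 CPM per kb and did not differ beyond their spread, as Abcc4 was above Slc22a8 in 5 of 12 Ctrl libraries and Slc22a8 above Slc22a5 in 7. Slco1a5 had 14.6 ± 1.91 and Abcc1 12.6 ± 1.99 CPM per kb, with Slco1a5 above in 8 of 12 libraries. At the lower end stood Abcg2 with 4.88 ± 0.741, Abcb1a with 2.00 ± 1.08 and Slc22a21 with 1.08 ± 0.258 CPM per kb. In SCNx the level per kb of Slc22a8 was 15.6 ± 2.94, below that of Slc22a5 at 19.9 ± 1.63.

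**Figure D1:**
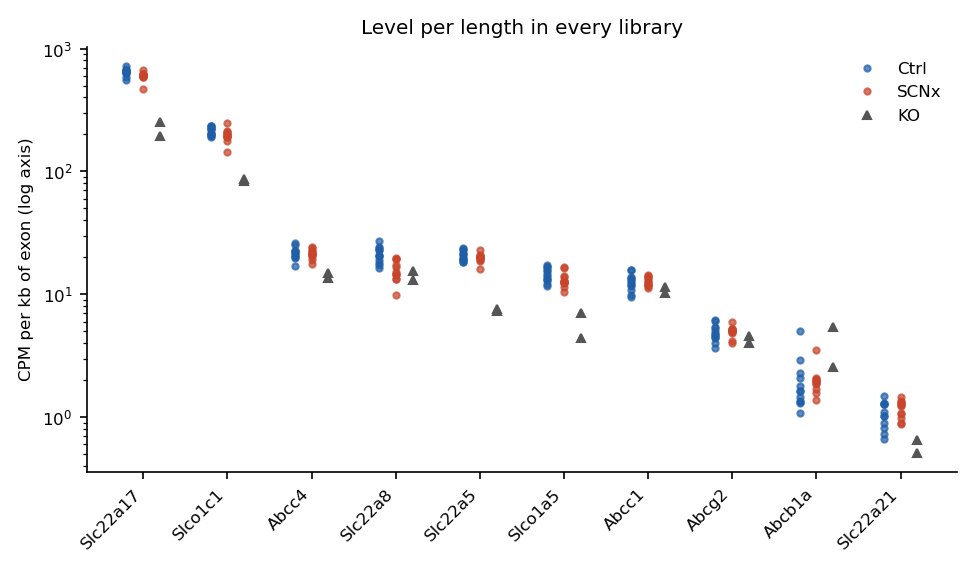
CPM per kb of exon (log axis) of the 10 transporter genes in each of the 12 Ctrl, 12 SCNx and 2 KO libraries, ordered by the Ctrl mean. Slc22a17 and Slco1c1 lie far above the rest, and Abcc4, Slc22a8 and Slc22a5 overlap in Ctrl.

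Slc22a8 gave the lowest p of the members for a difference of level between SCNx and Ctrl. In Ctrl its CPM was 71.3, 62.5, 60.8, 85.0, 94.3 and 80.0 from CT0 to CT20 and 71.0, 57.0, 66.4, 80.1, 82.3 and 72.1 from CT24 to CT44. The SCNx mice had 53.2, 46.2, 67.5, 50.7, 50.7 and 34.6 CPM from CT0 to CT20 and 57.9, 49.7, 46.6, 68.5, 60.3 and 67.0 CPM from CT24 to CT44. At 11 of the 12 times the SCNx mouse was lower, with CT8 as the exception. The groups overlapped in part: 7 SCNx libraries lay below every Ctrl library, and 8 Ctrl libraries lay above every SCNx library.

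**Figure D2:**
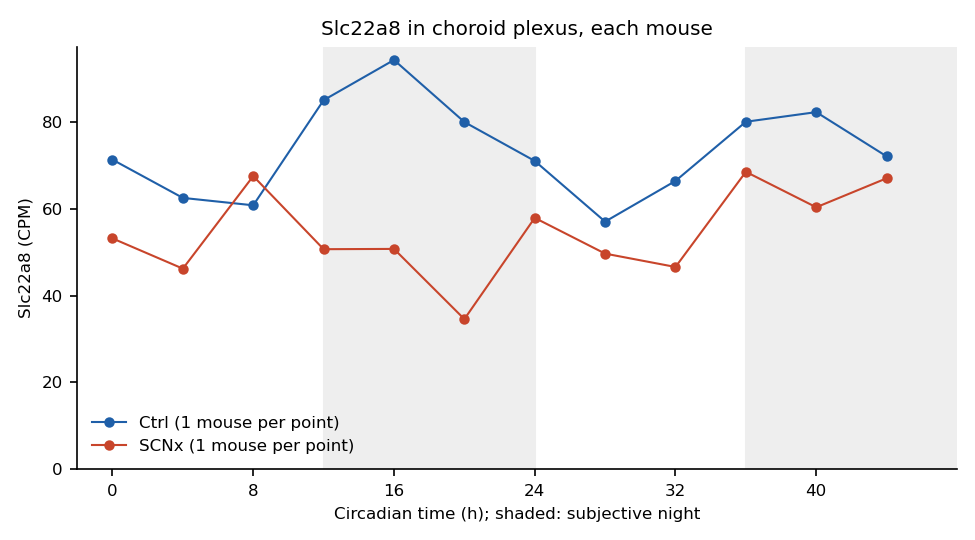
Slc22a8 in CPM against circadian time, 1 mouse per point, with subjective night shaded. Ctrl peaked at CT16 and CT40, and SCNx lay below Ctrl at 11 of 12 times.

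The mean of Slc22a8 was 73.6 ± 11.1 CPM for Ctrl mice and 54.4 ± 10.2 CPM for SCNx mice (SD, n = 12 each), a log2 fold change of -0.44 ± 0.098 (SE) with a 95% interval from -0.64 to -0.23. With the quasi-likelihood test of edgeR the unadjusted p was 0.000169, rank 7 of 13697 genes, and the adjusted p was 0.266 (Benjamini-Hochberg), so the difference did not pass the threshold of 0.05. That test called 0 of the 10 members and 0.0% of all genes. At an unadjusted p under 0.05 it gave 2 members, Slc22a8 and Slc22a17, and 9.37% of all genes. DESeq2 called 1 member, Slc22a8 (adjusted p = 0.0197), and 0.102% of all genes.

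The other 9 members lay closer to Ctrl. Slc22a17 had 1338 to 1719 CPM in Ctrl (median 1559) and 1134 to 1609 in SCNx (median 1455). Its log2 fold change was -0.10 ± 0.045 (SE) and its adjusted p 0.495 by edgeR's quasi-likelihood test, with the SCNx mouse lower at 10 of 12 times. Fold changes of Slco1a5 (-0.14), Slco1c1 (-0.11), Slc22a5 (-0.06) and Abcc4 (-0.02) were negative, and those of Slc22a21 (0.14), Abcg2 (0.03) and Abcc1 (0.02) positive, on the log2 scale and all with an adjusted p of at least 0.583 by the same test. The 95% interval of the log2 difference ran from -0.14 to 0.10 for Abcc4, from -0.13 to 0.17 for Abcc1 and from -0.12 to 0.18 for Abcg2. In all, 7 members had a lower and 3 a higher fitted level in SCNx, with a median of -0.04 beside 0.01 over all tested genes, of which 43.5% had a lower fitted level.

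Slc22a17 and Slco1c1 were lowest in SCNx CT32, with 1134 and 474 CPM, which among the SCNx libraries also had the lowest sum of the epithelial list and the highest of the neuronal and astrocyte lists. The part of these lists in the result was not tested beyond a fit with the mean epithelial marker level as a covariate, which was added after the data had been seen and gave Slc22a8 a log2 fold change of -0.40 (adjusted p = 0.540, edgeR).

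Abcb1a, the P-glycoprotein pump known from brain endothelium, varied most among the members. It reached 25.1 CPM in Ctrl CT4 and 17.8 CPM in SCNx CT32, whereas the next highest values were 14.7 in Ctrl and 10.3 in SCNx. These are the libraries that held most neuronal and astrocyte marker RNA. Its SD of log2 CPM in Ctrl, 0.61, exceeded that of 94.4% of all tested genes, and its log2 fold change was -0.0017 ± 0.20 (SE, adjusted p = 0.998, edgeR).

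Subjective day and night were also compared apart, and the gap of Slc22a8 was wider at night in value. In subjective night Ctrl ranged from 72.1 to 94.3 CPM and SCNx from 34.6 to 68.5, without overlap (6 mice each), and 0.759% of all genes did not overlap there. In subjective day Ctrl ranged from 57.0 to 71.3 CPM and SCNx from 46.2 to 67.5, with overlap. None of the members was without overlap by day, where 0.759% of all genes were. The log2 fold change was -0.57 ± 0.12 at night (adjusted p = 0.129) and -0.28 ± 0.12 by day (adjusted p = 0.297; SE, edgeR). A test of the difference between day and night gave -0.30 ± 0.18 (SE, unadjusted p = 0.105, adjusted p = 0.552, edgeR), so that a wider gap at night was not shown.

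Over the members, edgeR called 0 by day, 0 at night and 0 for the difference between day and night, where 0.0511%, 0.0146% and 0.84% of all genes were called. At an unadjusted p under 0.05 there were 3 members by day (Slc22a8, Slc22a17 and Slco1c1), with 15.3% of all genes, and 2 at night (Slc22a8 and Slco1a5), with 6.61%. By day the fitted level in SCNx was lower for 10 of the 10 epithelial markers (6 at an unadjusted p under 0.05, median log2 fold change -0.15) and higher for 5 of 5 macrophage markers (median 0.29) and 7 of 8 endothelial markers (median 0.37), with none past the adjusted threshold (edgeR). At night 4 of the 10 epithelial markers were lower (median 0.02), while 5 of 5 macrophage markers (median 0.10) and 5 of 8 endothelial markers (median 0.02) were higher. The part of these markers in the values by day or at night was not tested. Slco1c1 averaged 711 ± 52.5 CPM in Ctrl and 616 ± 78.7 in SCNx by day (SD, n = 6), and 687 ± 58.5 and 682 ± 69.4 at night. Slco1a5, an OATP carrier of bile salts and steroid conjugates, averaged 41.1 ± 4.68 CPM in Ctrl and 35.0 ± 4.81 in SCNx at night (SD, n = 6), and 36.3 ± 4.60 and 35.3 ± 5.35 by day.

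**Figure D3:**
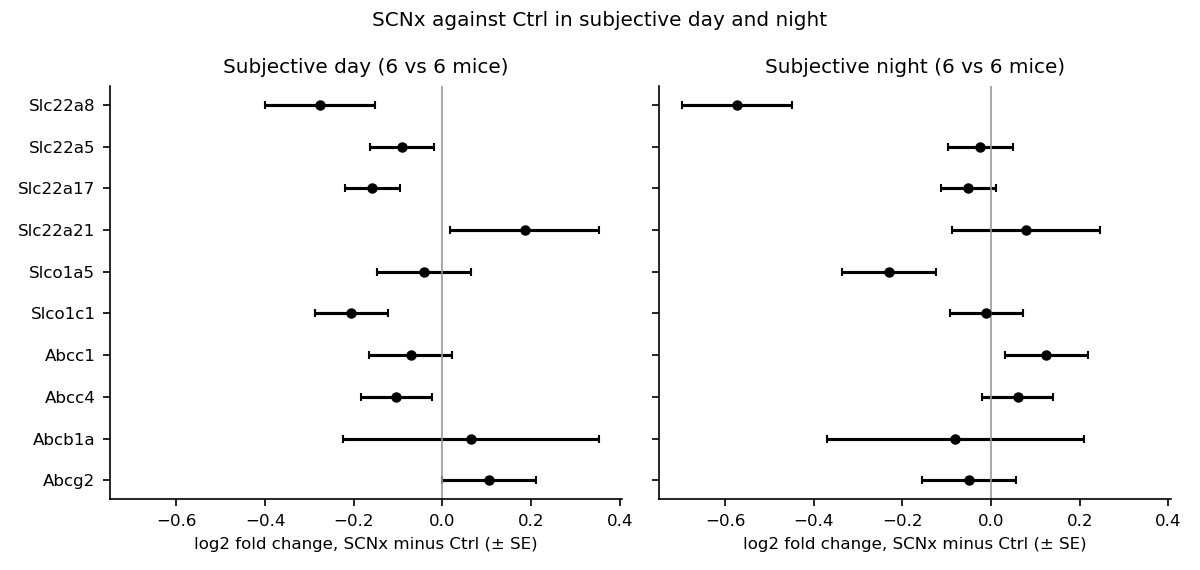
Log2 fold change of SCNx minus Ctrl of the 10 genes in subjective day (left) and subjective night (right), 6 mice per group, with SE as bars. Slc22a8 lies lowest in both, at -0.28 by day and -0.57 at night.

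Whether a gene followed a 24 h rhythm was asked by fitting a cosine and sine per group. In Ctrl, 3 of the 10 members were rhythmic (Abcc1, Abcc4 and Slc22a21), beside 10.7% of all genes, and their fitted peaks lay within an hour of each other late in the subjective day. Abcc1, which codes for the pump MRP1 of glutathione conjugates and leukotriene C4, was 107 CPM at CT8 and 107 at CT32 and 67.6 at CT20 and 64.3 at CT44. Abcc4, the pump MRP4 of cyclic nucleotides, prostaglandins and antivirals, was 150 CPM at CT8 and 145 at CT32, and 113 and 97.4 at CT20 and CT44. Slc22a21, a carnitine transporter, had 5.19 CPM at CT8 and 4.42 at CT32, and 2.30 at CT0 and 2.54 at CT44.

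The log2 amplitude, from the mean to the peak of the curve, was 0.26 ± 0.058 for Abcc1 with a peak at 7.87 h (adjusted p = 0.00789, edgeR) and 0.18 ± 0.042 for Abcc4 with a peak at 8.38 h (adjusted p = 0.0444, edgeR; SE). For Slc22a21 it was 0.42 ± 0.081, with a peak at 8.63 h (adjusted p = 0.00424, edgeR). Here and below, the SE of an amplitude was computed within its own group, as scatter of log2 CPM about that group's curve. It does not belong to the edgeR test, whose p in the fit to both groups rests on an error shared by Ctrl and SCNx. From trough to peak, the curves spanned 1.43-fold for Abcc1, 1.29-fold for Abcc4 and 1.80-fold for Slc22a21. The call of Abcc4 was lost in 15 of the 24 fits that left out 1 mouse, with adjusted p up to 0.180 without Ctrl CT44.

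For 3 further uptake carriers, no rhythm was called in Ctrl, and their fitted values follow. Slc22a8 had a log2 amplitude of 0.27 ± 0.042 and a peak at 16.2 h (adjusted p = 0.115, edgeR). This SE comes from Ctrl alone, where the scatter was smaller than in SCNx (SE 0.12), and is not the error behind that p. In Ctrl, every library of the subjective night (72.1 CPM and above) exceeded every library of the day (71.3 and below), and 1.34% of all genes were without overlap there. A fit to the Ctrl libraries alone gave it an adjusted p of 0.00358 (edgeR) and called 5 members, beside 14.6% of all genes. Slco1a5 had an amplitude of 0.23 ± 0.041 and a peak at 12.9 h (adjusted p = 0.0544, and 0.00896 in the fit to Ctrl alone), and Slc22a5, the carnitine carrier OCTN2, had 0.13 ± 0.037 and a peak at 9.91 h (adjusted p = 0.130; edgeR). No rhythm was called for Slc22a17, Slco1c1, Abcb1a and Abcg2 (adjusted p from 0.449 to 0.829, edgeR).

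**Figure D4:**
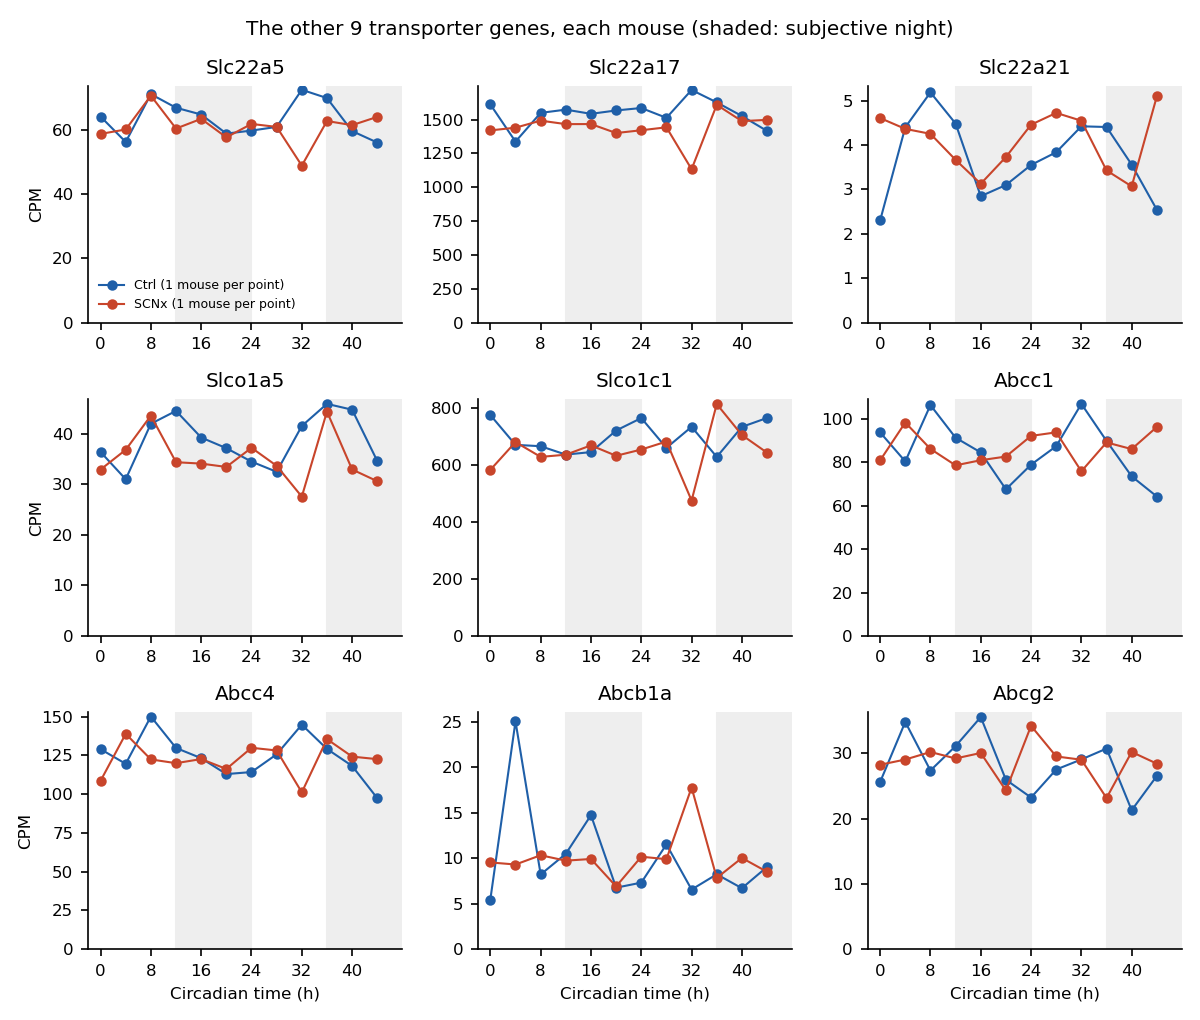
CPM against circadian time of the 9 genes other than Slc22a8, 1 mouse per point, with subjective night shaded. In Ctrl, Abcc1, Abcc4, Slc22a5 and Slc22a21 were highest at CT8 and CT32 of each cycle.

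The timing recurred in both cycles. In Ctrl, 7 of the 10 members were highest at the same phase in the first and the second cycle, beside 30.3% of all genes. These were Slc22a5, Slc22a21, Abcc1 and Abcc4 at CT8 and CT32, Slco1a5 at CT12 and CT36, Slc22a8 at CT16 and CT40, and Abcb1a at CT4 and CT28. In SCNx this held for 1 member, Abcb1a at CT8 and CT32, beside 15.4% of all genes. For Abcb1a, Ctrl CT4 and SCNx CT32 were also the libraries with most neuronal and astrocyte marker RNA, and their part in this timing was not tested.

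In SCNx, 0 members and 0.0% of all genes were rhythmic by edgeR, whereas DESeq2 called 0 members and 3.15% of all genes. By edgeR, 1 member, Slc22a21, and 14.8% of all genes had an unadjusted p under 0.05. Slc22a8 in SCNx had 34.6 to 68.5 CPM at night and 46.2 to 67.5 by day, and 0.65% of all genes, with no member among them, were without overlap between day and night. Amplitudes in SCNx were 0.10 ± 0.12 for Slc22a8, 0.076 ± 0.048 for Abcc1 and 0.0085 ± 0.058 for Abcc4 (SE, log2). A difference of the rhythm between SCNx and Ctrl was called for 1 member, Slc22a21 (adjusted p = 0.0404, edgeR), beside 2.12% of all genes. In SCNx this gene ran at 3.07 to 5.10 CPM with a fitted amplitude of 0.26 ± 0.065 and a peak at 2.42 h. For Abcc1 the adjusted p was 0.0990 and for Abcc4 0.349 (edgeR), so a rhythm called in Ctrl and not in SCNx does not show a difference for these genes. For Slc22a8 it was 0.541, with no rhythm called in either group by the fit to both groups, though the fit to Ctrl alone called one in Ctrl.

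**Figure D5:**
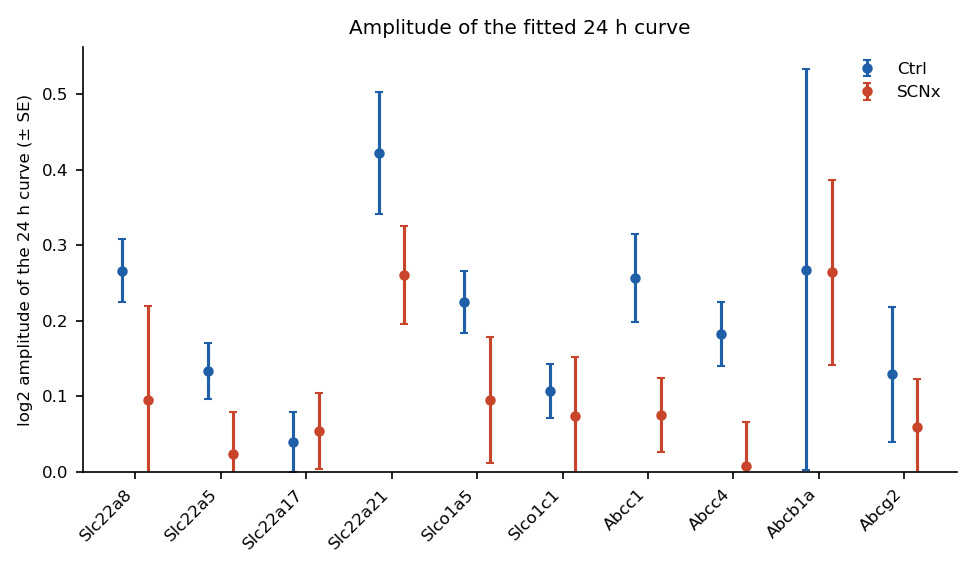
Log2 amplitude of the fitted 24 h curve of the 10 genes in Ctrl and SCNx (points) with SE (bars, computed within each group and cut at 0). Slc22a21, Slc22a8 and Abcc1 had amplitudes of 0.42, 0.27 and 0.26 in Ctrl and 0.26, 0.10 and 0.076 in SCNx.

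The targeted gene of KO was Arntl (Bmal1). It counted 10.6 CPM at ZT7 (95% exact Poisson interval 9.09 to 12.2) and 9.36 CPM at ZT18 (8.00 to 10.9), while Ctrl ranged from 2.01 to 39.4 CPM and SCNx from 3.28 to 21.8. Counts of the whole gene include exons outside the deletion and cells without Cre, and intervals here cover counting error only. With 1 mouse per time there is no test of KO, and the values describe these libraries.

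The ratio of ZT18 to ZT7 was past 1.5-fold for 2 of the 10 members, Abcb1a and Slco1a5, beside 14.2% of the 14383 genes at 1 CPM or more in both KO libraries. The median log2 ratio of these genes was 0.13, and TMM scaling between the KO libraries lowered every ratio. Abcb1a went from 12.7 CPM (11.1 to 14.5) to 26.9 (24.5 to 29.4), a ratio of 2.11 (1.80 to 2.48; 1.91 after TMM). Slco1a5 went from 18.7 CPM (16.7 to 20.9) to 11.7 (10.2 to 13.4), a ratio of 0.625 (0.523 to 0.745; 0.567 after TMM). The neuronal and astrocyte lists were also higher at ZT18, and their part in the value of Abcb1a was not tested.

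Slc22a8 was at 45.6 CPM (42.5 to 48.9) at ZT7 and 53.7 (50.4 to 57.2) at ZT18, a ratio of 1.18 (1.07 to 1.30; 1.07 after TMM). In Ctrl the mean at CT16, CT20, CT40 and CT44 was 1.29 times that at CT8 and CT32, and in SCNx 0.932 times. The same ratios were 0.679 in Ctrl and 1.07 in SCNx for Abcc1, and 0.766 and 1.09 for Abcc4. In KO, ZT18 to ZT7 gave 1.12 (1.04 to 1.21; 1.017 after TMM) for Abcc1 and 1.10 (1.03 to 1.19; 1.002 after TMM) for Abcc4. The Ctrl and SCNx ratios rest on CPM scaled by TMM, whereas the KO intervals rest on CPM without it. A higher level at ZT18 in KO is therefore not shown for Slc22a8, Abcc1 and Abcc4. Slc22a21 gave 0.627 in Ctrl, 0.854 in SCNx and 1.28 (0.781 to 2.11; 1.159 after TMM) in KO, from 31 and 41 counts. The remaining members had ratios from 0.873 for Abcg2 (0.793 after TMM) to 1.31 for Slc22a17 (1.188 after TMM) in KO. Light regime, dissection and kit differ from Ctrl, and no test between the groups was made.

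Other genes of the same systems were read for comparison. For the lists here and in the paragraphs that follow, the shares over all genes by edgeR are these. A difference of level was called for 0.0%, and 9.37% had an unadjusted p under 0.05 for it. A rhythm in Ctrl was called for 10.7% and a difference of the rhythm for 2.12%. In SCNx a rhythm was called for 0.0%, with 14.8% at an unadjusted p under 0.05. Of 47 other organic ion and peptide transporters, 19 had enough counts, 0 differed in level by edgeR (1 at an unadjusted p under 0.05) and 3 were rhythmic in Ctrl. These were Slco1a4 (amplitude 0.32 ± 0.053, peak at 8.85 h, adjusted p = 0.000336), Slc29a4 (0.35 ± 0.051, 4.88 h, 0.00319) and Slco3a1 (0.22 ± 0.037, 10.5 h, 0.0282; SE, log2, edgeR). Slco1a4, a neighbour of Slco1a5 in sequence, ranged from 99.8 to 186 CPM in Ctrl. A difference of the rhythm was called for Slco1a4 and Slc29a4. The median amplitude in Ctrl was 0.23 over the 19 genes and 0.20 over the 10 members, beside 0.11 over all tested genes. In SCNx, where none of these genes was called rhythmic, the medians were 0.204, 0.0747 and 0.0913. A higher median amplitude of the 19 genes is therefore not particular to Ctrl.

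Of 21 other pumps of the ABCB, ABCC and ABCG families, 13 were tested, 0 differed in level by edgeR (1 at an unadjusted p under 0.05) and 2 were rhythmic in Ctrl. Abcg1, a cholesterol exporter, had an amplitude of 0.20 ± 0.050 with a peak at 19.8 h (adjusted p = 0.0474, edgeR). Abcc2, a pump of the liver, was called too, but its 13.4 CPM in Ctrl CT16 stood above a next highest Ctrl value of 0.190, and this library held the hepatocyte markers. Of 33 genes of drug metabolism and its receptors, 27 were tested, 0 differed in level by edgeR (3 at an unadjusted p under 0.05) and 5 were rhythmic in Ctrl, among them Por, the electron donor of cytochrome P450 enzymes, which ranged from 58.0 to 119 CPM in Ctrl (amplitude 0.43 ± 0.052, peak at 9.35 h, adjusted p = 0.00143, edgeR). The quinone reductase Nqo1 peaked at 4.996 h, the cytochrome P450 Cyp2s1 at 7.50 h and the flavin monooxygenase Fmo2 at 14.6 h. The fifth, the liver factor Hnf4a, again stood out in Ctrl CT16 with 13.2 CPM, the next highest being 0.274.

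Prostaglandins are substrates of OAT3 and MRP4. Of 21 genes of prostaglandin synthesis, breakdown and reception, 18 were tested, 0 differed in level by edgeR (3 at an unadjusted p under 0.05) and 4 were rhythmic in Ctrl. Ptges, a prostaglandin E synthase, peaked at 8.29 h (amplitude 0.39 ± 0.068, adjusted p = 0.0141), Ptgs2, the inducible cyclooxygenase, at 12.1 h (0.75 ± 0.19, adjusted p = 0.0182), Pla2g4a, which frees arachidonic acid, at 12.6 h (0.35 ± 0.10, 0.0155), and Ptges3 at 19.4 h (0.12 ± 0.023, 0.00985; SE, edgeR). Of the 9 clock genes and clock output factors, 9 were rhythmic in Ctrl, 0 in SCNx (6 at an unadjusted p under 0.05), and 9 differed in rhythm. Their median log2 amplitude in Ctrl was 1.34, against 0.20 for the transporters.

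By Pearson correlation of log2 CPM over the 24 libraries, which share groups and sampling times, the genes most like Slc22a8 were Txndc5 (r = 0.83), Fam3a (0.80), Tmem38a (0.76), Tmbim1 (0.75) and Tmem35b (0.74). Within Ctrl (12 libraries) r was 0.60, 0.46, 0.74, 0.49 and 0.54. Among the members, r with Slc22a8 over 24 libraries was highest for Slco1a5 and Slc22a17, 0.57 each, and lowest for Slc22a21, at -0.29. Within Ctrl it was 0.53 for Slco1a5, 0.22 for Slc22a17 and -0.34 for Slc22a21. Of the 5 genes most like Slc22a8, Tmem38a had a rhythm called in Ctrl (amplitude 0.22, peak at 13.5 h, adjusted p = 0.0234, edgeR). A difference of level between the groups was called for none of the 5 (adjusted p from 0.366 to 0.498, edgeR), by a test that called 0.0% of all genes. Their log2 fold changes in SCNx ran from -0.26 for Tmem38a to -0.12 for Txndc5. The 5 were chosen by likeness to Slc22a8 over both groups, so their lower level is no independent result.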

How the data were processed

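Per the labels and the study's methods, single-end reads were processed by the authors with the nf-core/rnaseq pipeline (STAR, Salmon 1.9.0) on GRCm39, and the deposited values are estimated counts per gene without normalization. The submitters' processing notes also name cutadapt 3.4, SAMtools 1.16.1 and StringTie 2.2.1. Counts were rounded. The CPM printed for Ctrl and SCNx use library sizes summed over the tested genes and scaled by TMM. Those printed for KO use the sum over all its listed genes without TMM, so the 2 sets are not scaled alike. A gene entered the tests if its mean CPM reached 1 in each of Ctrl and SCNx (13697 of 55416). Fits used TMM and the quasi-likelihood test in edgeR 4.0.16 (R 4.3.3), with Benjamini-Hochberg adjustment over all tested genes and a threshold of 0.05; the rhythm fit had a mean, a 24 h cosine and a sine per group over the 24 libraries. DESeq2 1.42.0 and limma 3.58.1 were alternatives, as were other size factors and filters, circadian time as a block, a term for the second cycle, a fit per group, and leaving out each library. KO was described by CPM with exact Poisson intervals. Scripts in Python 3.11.15 used scipy 1.17.1. The level fit, rhythm fits and the day and night fit were tested on simulated data. Of simulated Ctrl rhythms, 36% were called at a log2 amplitude of 0.3 and 69% at 0.6. The rhythm difference was called for 16% and 41% of them. A level change was called for 77% of genes at a log2 fold change of 0.5, and a night change for 61%. A rhythm or difference that was not called is therefore not shown to be absent. The members and gene lists were chosen with earlier results of these data known. The genes named are the members, genes of the lists that a test called or that had the highest means, and the 5 most like Slc22a8; markers are described as lists.
Each time point of a group is 1 mouse, so that the error comes from the spread around the fitted means and curves. Depth limits precision little for most members. Slc22a21 was the lowest in Ctrl, with 2.30 CPM in Ctrl CT0 from 92.2 estimated counts, so counting error weighs more on its values. No columns of the deposited tables were left unassigned.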

Additional observations from a re-analysis of the deposited data

Results flagged for a closer look

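The rhythm of Slc22a21 differed between SCNx and Ctrl by the test of the difference (adjusted p = 0.0404, edgeR, Benjamini-Hochberg). Its fitted peak was at 8.63 h in Ctrl and 2.42 h in SCNx, at log2 amplitudes of 0.42 ± 0.081 and 0.26 ± 0.065 (SE). The gene was at 2.30 to 5.19 CPM in Ctrl and shares 24.2% of its 50-base windows with other genes, mainly Slc22a5, and the part of this in the difference was not tested. The call was absent in 13 of the 24 fits that left out 1 library.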

How the results depend on the processing

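For the level, DESeq2 gave 1 member called instead of 0, and every other setting and each left-out library gave 0; the fold change of Slc22a8 ran from -0.47 to -0.39 with 1 library left out (adjusted p 0.143 to 0.491, edgeR). With circadian time as a block, its log2 fold change was -0.44 (adjusted p = 0.506). The highest value of Slc22a8 was in Ctrl CT16, the Ctrl library with most hepatocyte marker RNA. Without Ctrl CT16 and SCNx CT0, its log2 fold change was -0.39 (adjusted p = 0.329), and -0.53 in subjective night (adjusted p = 0.228, edgeR). Its log2 amplitude in Ctrl was then 0.24 (adjusted p = 0.228, edgeR). For rhythm in Ctrl, 3 members (10.7% of all genes) became 1 without the filter on low counts (2.77%), 4 with DESeq2 (15%), 5 in a fit per group (14.6%) and 5 without Ctrl CT4 and SCNx CT32 (16.5%), which were chosen for their marker levels, and 2 to 5 with 1 library left out (5 without SCNx CT32). Slc22a8 passed in the fit per group and without SCNx CT20 (adjusted p = 0.0321). Slco1a5 passed in the fit per group, with DESeq2, at a mean CPM of at least 5 and without Ctrl CT4 and SCNx CT32 (adjusted p from 0.00896 to 0.0327) and in 5 of the 24 fits without 1 library, and Slc22a5 passed without Ctrl CT4 and SCNx CT32 (0.0152) and without SCNx CT32 alone (0.0332). For the rhythm difference, 1 (2.12% of all genes) became 0 without the filter (1.62%), at a mean CPM of at least 5 (2.64%, with Slc22a21 not tested), with a term for the second cycle (1.94%) and without Ctrl CT16 and SCNx CT0 (1.57%), 2 with DESeq2 (4.3%), and 0 to 1 with 1 library left out. The other causes were not tested. The sign of small fold changes turned: Abcb1a was 0.10 with limma-trend, 0.097 with circadian time as a block, 0.068 without Ctrl CT16 and SCNx CT0, 0.10 without Ctrl CT4 and SCNx CT32 and -0.11 to 0.21 with 1 library left out (0.21 without Ctrl CT4), and Abcc4 was 0.019 with the epithelial covariate. With 1 library left out, Abcc1 ran from -0.0096 to 0.056, Abcc4 from -0.051 to 0.0041 and Abcg2 from -0.0050 to 0.064.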
